A study of Mus musculus with 21 samples.

Results

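The genes described are 8 Kruppel-like factor (Klf) genes, Klf2, Klf3, Klf4, Klf5, Klf6, Klf9, Klf10 and Klf13, followed over stages of mouse pluripotency. They were taken by symbol from the 39396 genes of the count table, and all 8 were among the 16575 genes that had enough counts to be tested. The lowest raw count of any of them in any library was 561. All 8 are described whatever their level or change between stages, but the set was chosen with earlier results of these data known. It leaves out 9 other Klf genes of the count table, which are described further below.

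Kruppel-like factors are transcription factors that bind GC boxes and CACCC sequences through zinc fingers at the end of the protein, and they are relatives of the Sp factors. In mouse embryonic stem cells Klf2, Klf4 and Klf5 are known activators of the self-renewal network. Klf4 is a known target of LIF signalling through STAT3, Klf2 of the MEK5 and ERK5 kinases in other cells, and several family members act instead as repressors through CtBP or Sin3 cofactors.

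RNA sequencing covered 21 libraries, with 3 libraries in each of 7 groups. The A2 and D3 lines of mouse embryonic stem cells (mESCs) come from the inner cell mass of the embryo before implantation, and their ground state was kept in DMEM with 10% fetal bovine serum, 1000 U/mL LIF, antibiotics, beta-mercaptoethanol and 2i, the usual name for a MEK and a GSK3 inhibitor. Naive cells had been without 2i for 4 days. Early primitive ectoderm-like (EPL) cells were made from ground-state cells over 4 days, also in 10% serum, with LIF at 330 U/mL, L-proline at 400 uM and no 2i listed. The ground, naive and EPL cultures thus all contained serum and LIF, at a lower LIF dose in EPL. Naive and EPL cells were both taken 4 days after 2i culture. A change from naive to EPL below therefore compares groups and is not a time course. Epiblast stem cells (EpiSCs) existed for A2 alone: A2 cells were put into a pseudopregnant mouse, recovered after implantation and kept in KO DMEM with KOSR, activin A and bFGF, and another label gives their origin as the postimplantation epiblast. EpiSCs therefore differed from the other cells in basal medium, growth factors and passage through an animal at the same time, and these cannot be told apart. The study's design text calls the samples paired without saying how, and the sources used here do not say whether the 3 libraries of a group were separate cultures, so every p-value measures only the spread between these libraries.

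Total counts were between 15320599 and 23490527 per library. Libraries of one group correlated at 0.9911 or more (Pearson's r of log2 CPM across genes). The lowest values involved D3 naive replicate 2 (0.9929 with both others) and A2 EpiSC replicate 3 (0.9924 and 0.9911). In EpiSC libraries 10 fibroblast markers summed to 2157 to 2708 CPM (counts per 1000000, with library sizes scaled by TMM), against 5.42 to 12.7 CPM in all other libraries. Col1a1, a collagen chain, was at 1177, 1104 and 1416 CPM in EpiSCs and at 0.35 to 2.79 CPM elsewhere. All 10 pluripotent cell markers were detected in every group, but they summed to 1554 to 2022 CPM in EpiSCs and 3890 to 7322 CPM elsewhere. Otx2 averaged 13.2 CPM in EpiSC and 59.2 CPM in A2 EPL, and Dnmt3b 90.4 and 792.5 CPM. Zfp42 averaged 317.5 and 875.2 CPM in the same groups. Fgf5 and T went the other way, at 12.7 and 4.41 CPM in EpiSC and 4.51 and 0.229 CPM in A2 EPL. The 6 primitive endoderm markers summed to 107 to 147 CPM in EpiSCs and 2.83 to 34.4 CPM elsewhere. The 5 endothelial markers summed to 24.1 to 33.3 CPM in EpiSCs and 11.3 to 37.6 CPM elsewhere, but they differed in direction. In EpiSC against A2 EPL the log2 change was 4.33 for Cdh5, 1.74 for Tie1, 0.01 for Tek and -0.82 for Vwf. Of the fibroblast markers, Dcn, Lum and Postn were at 0 in all A2 naive libraries, Col3a1, Lum and Postn in A2 EPL, Dcn in D3 ground, Lum, Postn and Twist2 in D3 naive, and Postn in D3 EPL. Of the endothelial markers, Emcn was at 0 in all 6 groups other than EpiSC and Cdh5 in D3 ground. The part of other cells in any EpiSC value below was not tested.

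Promoters are shown for Klf4, Klf2 and Klf6 because these genes followed 3 different courses over the stages, described below. The sequences are RefSeq promoters of build GRCm38.p6, cut so that they end before the gene start in both RefSeq and GENCODE, and read 5′ to 3′ on the gene's strand. Capitals mark GC boxes (GGGCGG or its reverse complement), the core that Kruppel-like and Sp factors bind. The Klf4 stretch is chr4:55532476-55532725 on the minus strand, that of Klf2 chr8:72318812-72319032 on the plus strand, and that of Klf6 chr13:5861239-5861481 on the plus strand.
Klf4: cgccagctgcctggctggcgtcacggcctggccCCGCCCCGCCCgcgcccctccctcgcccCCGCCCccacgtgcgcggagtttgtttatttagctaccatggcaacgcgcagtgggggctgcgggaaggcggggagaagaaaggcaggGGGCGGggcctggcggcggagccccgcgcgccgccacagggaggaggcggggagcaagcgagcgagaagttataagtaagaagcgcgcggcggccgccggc
Klf2: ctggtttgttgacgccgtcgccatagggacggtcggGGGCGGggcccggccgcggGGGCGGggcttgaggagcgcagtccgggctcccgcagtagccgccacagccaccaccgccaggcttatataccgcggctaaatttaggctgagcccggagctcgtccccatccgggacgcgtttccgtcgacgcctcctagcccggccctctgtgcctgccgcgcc
Klf6: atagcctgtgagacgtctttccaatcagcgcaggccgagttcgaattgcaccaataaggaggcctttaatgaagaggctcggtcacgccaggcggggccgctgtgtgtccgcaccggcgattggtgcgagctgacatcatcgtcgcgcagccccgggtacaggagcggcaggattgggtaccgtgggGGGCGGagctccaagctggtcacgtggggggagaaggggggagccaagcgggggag

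Within the 250 bases before the RefSeq start, Klf4 held 4 GC boxes, of which a pair overlap in the capitals above, Klf2 held 2 and Klf6 held 1. A GC box in either orientation was present in 32.7% of 32817 promoter windows of the same length. Among the other members in the RefSeq table, Klf3 held 6 GC boxes, Klf13 held 3 and Klf9 held 0. CACCC in either orientation, found in 52.0% of windows, occurred 5 times in Klf3 and 1 time each in Klf2 (outside the stretch shown), Klf9 and Klf13, and was not in the windows of Klf4 and Klf6. In Klf3 and in Klf13, 1 GC box overlapped a CACCC. The Klf9 window alone had TTCNNNGAA, the pattern STAT factors bind, which 7.01% of windows held. The octamer ATGCAAAT (1.60% of windows) and TATAAA (12.4%) were in none of the 6 windows. These are matches of letters in 1 window per gene. Klf5 and Klf10 are named only.

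Klf4, an activator and one of the classical reprogramming factors, lies at chr4:55527143-55532466 (minus strand, Ensembl ENSMUSG00000003032, GRCm38). In A2 it was at 348, 298 and 342 CPM in the 3 ground libraries, 203, 189 and 207 CPM in naive, 50.9, 62.5 and 63.4 CPM in EPL and 149, 156 and 118 CPM in EpiSC. D3 libraries were at 263, 266 and 277 CPM in ground, 177.9, 164.7 and 164.5 CPM in naive and 36.4, 45.4 and 36.7 CPM in EPL. Klf4 was thus highest in ground, lower in every naive library and lowest in every EPL library of both lines, while EpiSCs lay between naive and EPL. In the order of group means, A2 ground, D3 ground, A2 naive, D3 naive, A2 EpiSC, A2 EPL and D3 EPL, no neighbouring groups overlapped, and the highest mean was 8.34 times the lowest. Relative to ground, Klf4 in EPL was lower by a log2 change of -2.48 ± 0.11 (SE) in A2, 5.59-fold (edgeR quasi-likelihood, Benjamini-Hochberg adjusted p = 1.07e-14), and by -2.77 ± 0.11 in D3, 6.80-fold (edgeR adjusted p = 1.67e-15). The smaller step from ground to naive was -0.72 ± 0.10 in A2 (edgeR adjusted p = 2.56e-06) and -0.67 ± 0.10 in D3 (edgeR adjusted p = 6.62e-06). The difference between lines in these changes, D3 minus A2, did not pass in the main fit. With single libraries left out it was -0.41 to -0.22 for EPL against ground and -0.47 to -0.29 for EPL against naive. Among the alternative and leave-out fits the latter did pass in places, but the former did not. In bulk RNA, fewer cells with a transcript and less of it per cell cannot be told apart.

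Between EPL and EpiSC the direction of Klf4 was the opposite: it was 2.40-fold higher in EpiSC (log2 change 1.26 ± 0.10, edgeR adjusted p = 3.86e-10), with all EpiSC libraries above all EPL libraries. EpiSC remained below ground (-1.22 ± 0.10, edgeR adjusted p = 3.23e-10) and below naive (-0.50 ± 0.10, edgeR adjusted p = 0.000126). Without EpiSC replicate 3 the value against EPL was 1.36 (edgeR adjusted p = 6.07e-11). That library, with the lowest Klf4 of its group at 118 CPM, also had the highest fibroblast marker sum (2708 CPM, against 2291 and 2157 CPM) and the lowest pluripotent marker sum (1554 CPM, against 1892 and 2022 CPM). The genes whose group means were most like those of Klf4, by Pearson's r over the 7 groups among 11339 genes, were Ddc (r = 0.9945), Arntl (0.989) and Tbx3 (0.988). The 7 means share libraries and lines, so these values are a description. Tbx3, a T-box factor of the self-renewal network, went from 285 to 147 to 21.2 CPM over A2 ground, naive and EPL, and stood at 84.7 CPM in EpiSC.

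**Figure D1:**
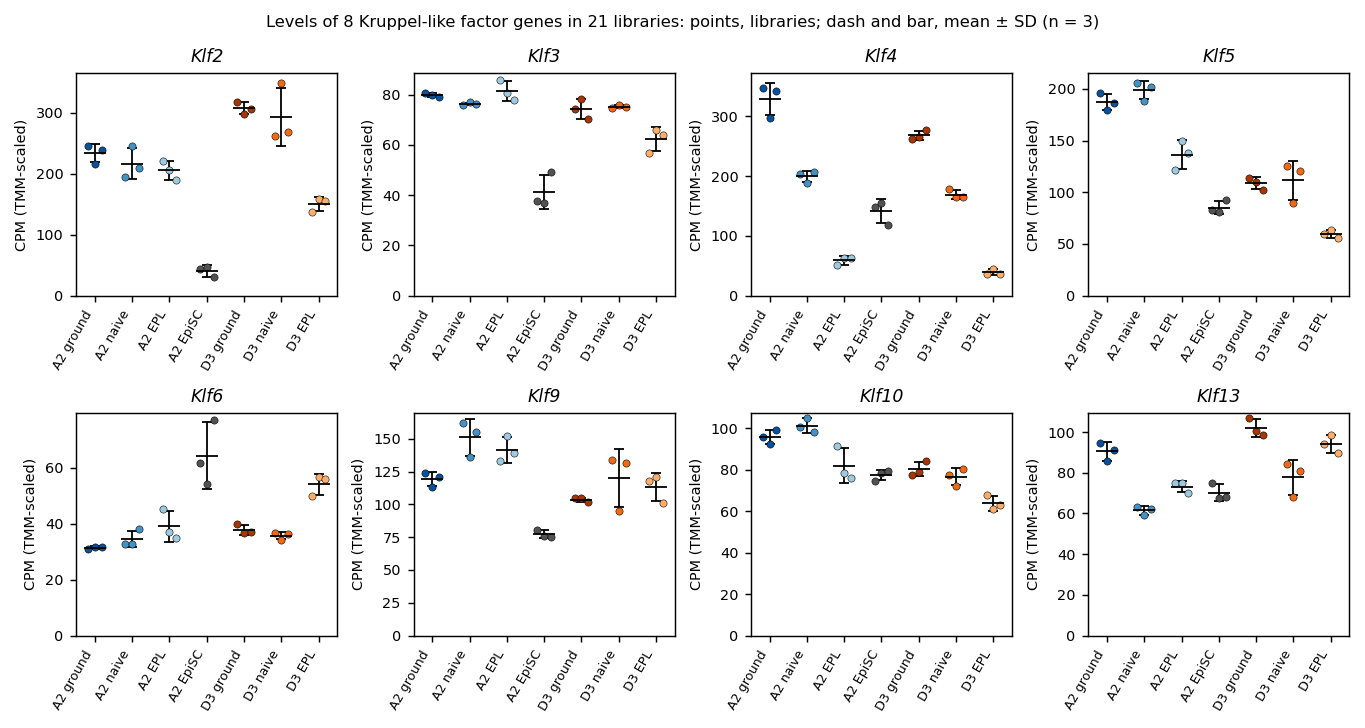
Level of each member in CPM (vertical axis, from 0) in the 21 libraries, as points, with the mean and SD of each of the 7 groups (n = 3) as dash and bar. Klf4 is lowest in EPL of both lines, and Klf2 is lowest in EpiSC. Klf6 has its highest mean in EpiSC, where its libraries overlap those of D3 EPL.

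Klf2, also an activator, lies at chr8:72319033-72321656 (plus strand, ENSMUSG00000055148). In A2 its level was 246, 216 and 239 CPM in ground, 195, 245 and 210 CPM in naive and 220.8, 206.5 and 189.0 CPM in EPL, and these groups overlapped one another. Levels in D3 were 318, 298 and 306 CPM in ground, 262, 349 and 268.5 CPM in naive, and 138, 158 and 155 CPM in EPL. D3 EPL libraries therefore lay below every other ground, naive or EPL library of either line. In EpiSC, Klf2 was at 44.48, 46.74 and 29.97 CPM, the lowest of the 7 groups. EPL against ground gave -1.03 ± 0.13 in D3, 2.05-fold lower (edgeR adjusted p = 3.19e-07), and -0.19 ± 0.13 in A2, which did not pass (edgeR adjusted p = 0.222) except in a fit of those groups alone (-0.17, edgeR adjusted p = 0.0464). EpiSC was 5.085-fold lower than A2 EPL (-2.35 ± 0.135, edgeR adjusted p = 1.01e-12) and 5.79-fold lower than A2 ground (-2.53 ± 0.135, edgeR adjusted p = 1.86e-13).

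Without EpiSC replicate 3, which had the lowest Klf2, the value against EPL was -2.18 (edgeR adjusted p = 9.14e-13). In the order of group means (D3 ground, D3 naive, A2 ground, A2 naive, A2 EPL, D3 EPL, EpiSC) 3 neighbouring pairs overlapped: the first 2 groups, A2 ground and naive, and A2 naive and EPL.

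The difference between the lines in the response of Klf2 was tested itself. The change from ground to EPL was more negative in D3 than in A2 by -0.85 ± 0.18 on the log2 scale (edgeR adjusted p = 0.00246), and that from naive to EPL by -0.89 ± 0.18 (edgeR adjusted p = 0.00206). These terms share the EPL libraries. Leaving out any one library gave values from -0.92 to -0.78 and from -0.9984 to -0.7435. The difference between lines in the change from ground to naive did not pass (0.04 ± 0.18, edgeR adjusted p = 0.947). As a level, Klf2 was higher in D3 than in A2 in ground (1.315-fold, edgeR adjusted p = 0.0286) and naive (1.35-fold, edgeR adjusted p = 0.0113) and lower in EPL (1.37-fold, edgeR adjusted p = 0.00966). The ground call did not pass without A2 ground replicate 2 (0.34, edgeR adjusted p = 0.122) or 3 (0.42, edgeR adjusted p = 0.0552), or without D3 ground replicate 1 (0.38, edgeR adjusted p = 0.0809) or 3 (0.41, edgeR adjusted p = 0.0572). The naive call did not pass without A2 naive replicate 1 (0.38, edgeR adjusted p = 0.0581) or D3 naive replicate 2 (0.29, edgeR adjusted p = 0.0888). Most like Klf2 over the group means were Kdm3a (r = 0.9965), a histone demethylase, Fzr1 (0.996), an activator of the anaphase-promoting complex, and Polr1c (0.996), an RNA polymerase subunit.

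**Figure D2:**
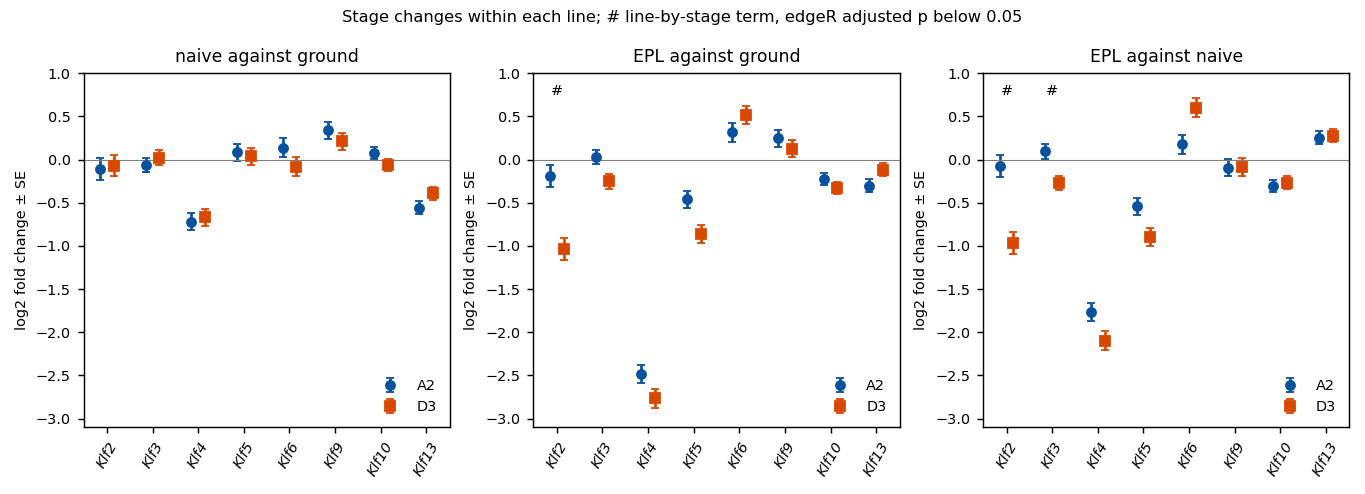
Log2 fold change with its SE (vertical axis) of each member between stages, for A2 (circles) and D3 (squares), in 3 panels. A hash marks a member whose change differed between lines at an edgeR adjusted p below 0.05, which were Klf2 in both EPL comparisons and Klf3 in EPL against naive.

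Klf5, the third activator of the self-renewal network, lies at chr14:99298691-99315036 (plus strand, ENSMUSG00000005148). In A2 its level was 196, 180 and 187 CPM in ground, 206, 189 and 202 CPM in naive, 121, 149 and 138 CPM in EPL and 82.6, 80.5 and 92.2 CPM in EpiSC. D3 levels were 113.5, 110.2 and 102.1 CPM in ground, 125.0, 89.15 and 120.2 CPM in naive and 59.78, 63.55 and 55.96 CPM in EPL. At each shared stage every D3 library was below every A2 library, and in both lines EPL was below ground and naive. D3 was lower than A2 by 1.73-fold in ground (edgeR adjusted p = 4.26e-06), 1.78-fold in naive (edgeR adjusted p = 1.31e-06) and 2.28-fold in EPL (edgeR adjusted p = 1.05e-08). From ground to EPL, Klf5 changed by -0.46 ± 0.10 in A2 (edgeR adjusted p = 0.000416) and by -0.86 ± 0.10 in D3 (edgeR adjusted p = 1.56e-07). The difference between these changes did not pass (-0.40 ± 0.14, edgeR adjusted p = 0.0629), although it did without A2 EPL replicate 1 (-0.48, edgeR adjusted p = 0.0267). For EPL against naive that difference was -0.36 ± 0.14 (edgeR adjusted p = 0.105), and it passed without A2 EPL replicate 1 (-0.44, edgeR adjusted p = 0.042) or D3 naive replicate 2 (-0.50, edgeR adjusted p = 0.00559). In EpiSC, Klf5 was 1.60-fold below A2 EPL (edgeR adjusted p = 2.83e-06). Genes most like it were Ints7 (r = 0.990), a subunit of the Integrator complex, Vwa3b (0.989) and Clcn2 (0.978), a chloride channel.

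Per unit of exon length, Klf2, Klf4 and Klf5 made up most of the Klf transcripts of ground-state cells, and less of them in naive, EPL and EpiSC. Their summed share of the RPKM (CPM per kilobase of exon) of all 17 Klf genes was 66.8% ± 0.91 (SD, n = 3) in A2 ground, 63.5% ± 1.4 in naive, 55.0% ± 0.54 in EPL and 46.6% ± 3.6 in EpiSC. The D3 shares were 67.6% ± 0.34, 64.7% ± 3.5 and 46.6% ± 1.3 in ground, naive and EPL. The RPKM summed over all 17 Klf genes went from 405 ± 23 to 348 ± 7.2, 285 ± 8.7 and 181 ± 8.7 RPKM over the A2 stages, and from 408 ± 6.0 to 364 ± 13 and 227 ± 9.9 RPKM over those of D3. The share of Klf4 was 26.7% in A2 ground, 6.79% in A2 EPL and 25.5% in EpiSC, whereas that of Klf2 was 31.3%, 39.0% and 12%. EpiSC and ground thus had similar shares of Klf4 at RPKM levels of 46.3 and 108. Shares and levels per length are descriptions and were not tested.

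**Figure D3:**
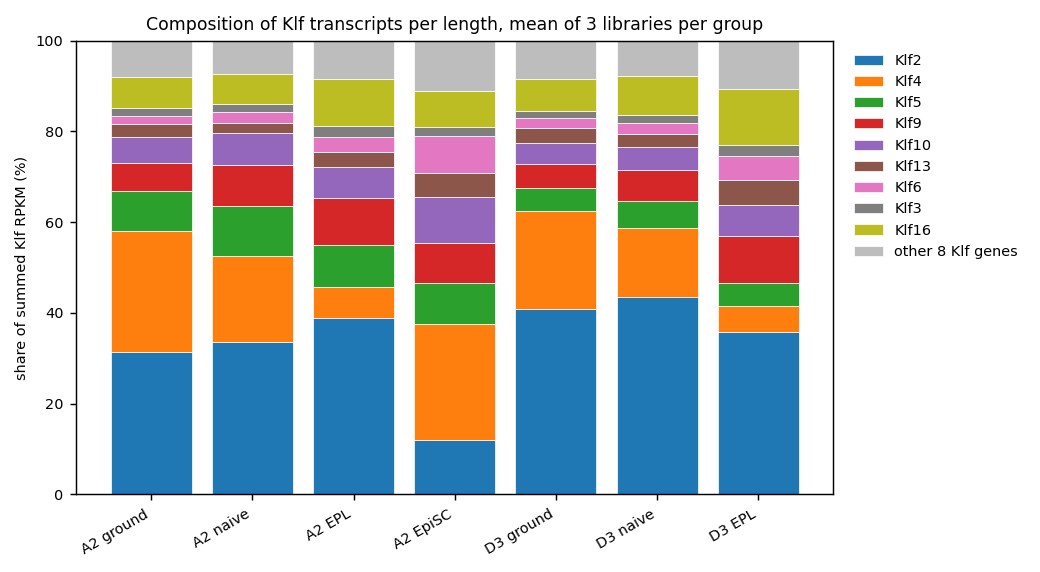
Share of the RPKM summed over 17 Klf genes (vertical axis, percent) held by each gene in each of the 7 groups, as the mean of 3 libraries. Klf4 takes 6.79% of the A2 EPL bar and 25.5% of the EpiSC bar, and Klf2 39.0% and 12%.

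Klf6, a widely expressed activator, was the member whose level was higher in both EPL and EpiSC than in ground (chr13:5861482-5870394, plus strand, ENSMUSG00000000078). In A2 it was at 30.9, 31.8 and 31.5 CPM in ground, 32.8, 32.8 and 38.0 CPM in naive, 45.3, 37.1 and 34.9 CPM in EPL and 61.6, 54.2 and 77.2 CPM in EpiSC. D3 libraries had 40.0, 36.6 and 37.0 CPM in ground, 36.8, 34.1 and 36.3 CPM in naive and 49.8, 56.7 and 55.9 CPM in EPL. EPL libraries lay above ground libraries in both lines. EpiSC libraries lay above all other A2 libraries but overlapped those of D3 EPL. Against ground, EPL was higher by 0.32 ± 0.11 in A2 (edgeR adjusted p = 0.0193) and by 0.52 ± 0.11 in D3 (edgeR adjusted p = 0.000275). Without A2 EPL replicate 1 the A2 value was 0.20 and did not pass (edgeR adjusted p = 0.163). EpiSC was 1.645-fold above A2 EPL (0.72 ± 0.11, edgeR adjusted p = 3.68e-06) and 2.05-fold above A2 ground (edgeR adjusted p = 1.69e-08). EpiSC replicate 3, which had the highest fibroblast marker sum, also had the highest Klf6, and without it the value against EPL was 0.55 (edgeR adjusted p = 3.4e-05). D3 EPL was above D3 naive as well (0.60 ± 0.11, edgeR adjusted p = 0.000118), while the A2 value was 0.18 ± 0.11 with overlapping groups (edgeR adjusted p = 0.225). The difference between these changes, 0.42 ± 0.15, did not pass (edgeR adjusted p = 0.0795), but did without A2 EPL replicate 1 (0.53, edgeR adjusted p = 0.0249). Genes most like Klf6 were Plekhg2 (r = 0.990), Dvl1 (0.986), a Wnt pathway protein, and Parp9 (0.985).

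Klf3 is a repressor that recruits CtBP (chr5:64803388-64832901, plus strand, ENSMUSG00000029178). It was between 76.0 and 85.9 CPM in all A2 ground, naive and EPL libraries, between 70.2 and 78.1 CPM in D3 ground and naive, and at 56.9, 66.0 and 63.8 CPM in D3 EPL. EpiSC libraries were the lowest, at 37.8, 36.7 and 49.1 CPM. EpiSC was 1.98-fold below A2 EPL (-0.98 ± 0.09, edgeR adjusted p = 1.03e-09). In D3, EPL was below ground (-0.25 ± 0.08, edgeR adjusted p = 0.0142) and below naive (-0.27 ± 0.08, edgeR adjusted p = 0.0121). The first of these did not pass without D3 ground replicate 2 (-0.20, edgeR adjusted p = 0.0819) or when scaled to the library total (-0.18, edgeR adjusted p = 0.0727), and neither passed without D3 EPL replicate 1 (-0.19, edgeR adjusted p = 0.0974, and -0.22, edgeR adjusted p = 0.0729). In A2 the EPL values were 0.03 ± 0.08 and 0.09 ± 0.08, neither of which passed. The difference between lines in EPL against naive was -0.37 ± 0.12 (edgeR adjusted p = 0.0470). It passed without A2 EPL replicate 3 and without D3 EPL replicates 2 or 3, and missed the threshold without each other library of those groups, at values from -0.39 to -0.32, as it did under library total scaling (-0.32, edgeR adjusted p = 0.0883) and with a replicate block (-0.37, edgeR adjusted p = 0.0585). The exons of Klf3 overlap those of Gm20033, on the opposite strand, over 404 bases, and the library kit did not mark strand, so reads there cannot be told apart. Genes most like Klf3 were Hexim2 (r = 0.996), Snhg12 (0.995) and Gpa33 (0.991).

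Klf9, a repressor known as a glucocorticoid-induced gene (chr19:23141226-23168134, plus strand, ENSMUSG00000033863), was highest in A2 naive (162, 136 and 155 CPM) and lowest in EpiSC (80.6, 76.2 and 75.4 CPM). A2 ground libraries were at 113 to 124 CPM and A2 EPL libraries at 133 to 152 CPM, while D3 libraries spanned 95.3 to 134 CPM with overlap between all 3 stages. Klf9 was 1.27-fold higher in A2 naive than in ground (0.34 ± 0.10, edgeR adjusted p = 0.00672). The D3 value, 0.21 ± 0.10, did not pass (edgeR adjusted p = 0.0793) but did without D3 naive replicate 2, which was at 95.3 CPM against 134 and 131 CPM in the others (0.355, edgeR adjusted p = 0.000953). It also passed with RLE size factors (0.25, edgeR adjusted p = 0.0356), library total scaling (0.26, edgeR adjusted p = 0.0421), no filter (0.24, edgeR adjusted p = 0.0247) and DESeq2 (0.25, DESeq2 adjusted p = 0.0343). Without that library D3 EPL was also below naive (-0.23, edgeR adjusted p = 0.0308, against -0.09 with it). A2 EPL was above ground (0.245 ± 0.10, edgeR adjusted p = 0.0425), a call lost without A2 ground replicate 2 (0.21, edgeR adjusted p = 0.123) or 3 (0.28, edgeR adjusted p = 0.0511) or A2 EPL replicate 2 (0.19, edgeR adjusted p = 0.163). EpiSC was 1.83-fold below A2 EPL (-0.87 ± 0.10, edgeR adjusted p = 9.71e-08). Most like Klf9 were Aldh6a1 (r = 0.983), Pfdn2 (0.982), a prefoldin subunit, and Nifk (0.981).

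Klf13 is a repressor that recruits Sin3 cofactors (chr7:63886351-63938915, minus strand, ENSMUSG00000052040). In A2 it was at 85.7 to 94.6 CPM in ground, 59.2 to 63.1 CPM in naive, 70.1 to 74.9 CPM in EPL and 67.43 to 74.95 CPM in EpiSC. In D3 it was at 98.5 to 107 CPM in ground, 67.9 to 84.4 CPM in naive and 89.8 to 98.7 CPM in EPL. Klf13 was therefore lowest in naive in both lines. It fell from ground to naive by 0.56 ± 0.08 on the log2 scale in A2 (edgeR adjusted p = 1.93e-06) and by 0.39 ± 0.07 in D3 (edgeR adjusted p = 0.00013), and was higher in EPL than in naive by 0.25 ± 0.08 (edgeR adjusted p = 0.0134) and 0.28 ± 0.07 (edgeR adjusted p = 0.0047). The D3 value did not pass in a fit of those groups alone (0.26, edgeR adjusted p = 0.0546). A2 EPL stayed below A2 ground (-0.31 ± 0.08, edgeR adjusted p = 0.00153), and the D3 value was -0.12 ± 0.07 (edgeR adjusted p = 0.193). Most like Klf13 were Cdip1 (r = 0.978), Slc35e1 (0.9765) and Necap2 (0.973).

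Klf10, a gene induced early by TGF-beta (chr15:38291463-38300706, minus strand, ENSMUSG00000037465), had the narrowest range of the members: its highest group mean, 101 CPM in A2 naive, was 1.59 times its lowest, 63.8 CPM in D3 EPL. In A2 it was between 92.4 and 105 CPM in ground and naive libraries, between 75.8 and 91.7 CPM in EPL and between 74.6 and 79.2 CPM in EpiSC, so EPL lay below ground and naive and overlapped EpiSC. The D3 ground and naive libraries, at 72.3 to 84.2 CPM, lay above those of EPL at 60.9 to 67.8 CPM. EPL was below naive by -0.31 ± 0.07 in A2 (edgeR adjusted p = 0.00215) and -0.27 ± 0.07 in D3 (edgeR adjusted p = 0.00463). Against ground, EPL was lower by -0.23 ± 0.07 in A2 (edgeR adjusted p = 0.0102) and -0.33 ± 0.07 in D3 (edgeR adjusted p = 0.000416). The A2 call was lost without ground replicate 3 (-0.18, edgeR adjusted p = 0.0692) or EPL replicate 2 (-0.19, edgeR adjusted p = 0.0525) or 3 (-0.15, edgeR adjusted p = 0.113), and with no filter (-0.20, edgeR adjusted p = 0.0726). Genes most like Klf10 were Cr1l (r = 0.986), a complement regulator, Commd6 (0.973) and Vwa3b (0.972). Vwa3b was named for Klf5 too, and the group means of Klf5 and Klf10 themselves correlated at 0.967.

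Over the 8 members, naive against ground gave 1 higher and 2 lower in A2, where 25.1% and 25.9% of all genes tested were called higher and lower, and 0 higher and 2 lower in D3, with 26.3% and 27.3% of all genes. EPL against ground gave 2 higher and 4 lower in A2 (27.2% and 27.6% of all genes) and 1 higher and 5 lower in D3 (29.4% and 28.4%). EPL against naive gave 1 higher and 3 lower in A2 (16.8% and 16.1%) and 2 higher and 5 lower in D3 (24.4% and 20.4%). The median log2 change of the members in D3 was -0.29 for EPL against ground and -0.27 for EPL against naive, beside 0 and 0.0161 for all genes. In A2 these medians were -0.21 and -0.09, beside -0.00227 and 0.00368. Without D3 naive replicate 2, 3 members were called for D3 naive against ground and 8 for D3 EPL against naive. The share of all genes called without that library was not counted. Comparisons with ground share the ground libraries, and those with EPL share the EPL libraries.

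EpiSCs had 2 members higher and 4 lower than A2 EPL (39.1% and 31.3% of all genes), 1 higher and 7 lower than ground (39.1% and 34.1%) and 2 higher and 6 lower than naive (39.1% and 31.2%). Klf2, Klf3, Klf5 and Klf9 were lower than in each of the other A2 stages, and Klf6 was higher. Klf10 was lower than in ground (-0.31 ± 0.07, edgeR adjusted p = 0.000523) and naive (-0.39 ± 0.07, edgeR adjusted p = 4.76e-05), and its value against EPL, -0.08 ± 0.07, did not pass (edgeR adjusted p = 0.312). Klf13 was lower than in ground (-0.37 ± 0.07, edgeR adjusted p = 0.000145) and higher than in naive (0.19 ± 0.08, edgeR adjusted p = 0.029). The latter did not pass without A2 naive replicate 2 (0.17, edgeR adjusted p = 0.0898) or 3 (0.19, edgeR adjusted p = 0.0519) or EpiSC replicate 1 (0.13, edgeR adjusted p = 0.166), with no filter (0.19, edgeR adjusted p = 0.068) or in a fit of those groups alone (0.13, edgeR adjusted p = 0.13). Scaling to the library total in place of TMM moved the median of all genes by 0.21, 0.26 and 0.18 against EPL, ground and naive. It changed the split of all called genes from 6488 higher and 5648 lower to 8280 and 3658 against ground, from 6475 and 5192 to 7966 and 3638 against EPL, and from 6476 and 5179 to 7838 and 3854 against naive. Under that scaling the values of Klf10 and Klf13 against ground, -0.04 (edgeR adjusted p = 0.577) and -0.10 (edgeR adjusted p = 0.235), did not pass, and their values against EPL, which did not pass under either scaling, changed sign to 0.12 and 0.14. Without EpiSC replicate 3 the numbers of members called were again 6 against EPL, 8 against ground and 8 against naive. For that fit the share of all genes called was not counted.

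**Figure D4:**
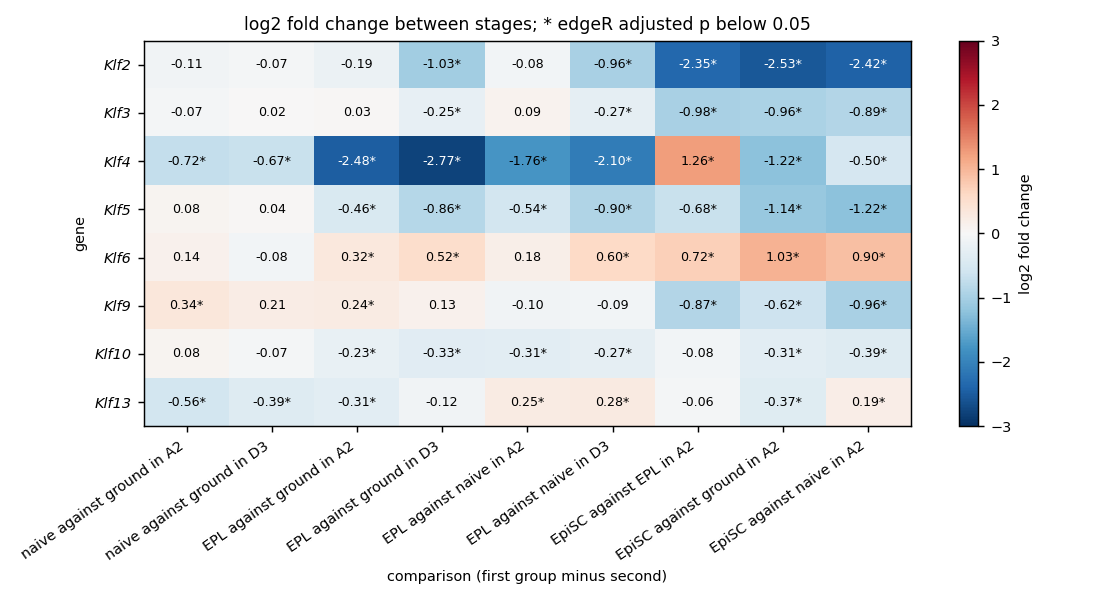
Log2 fold change (colour and printed value) of each member (rows) in the 9 comparisons between stages (columns, first group minus second), with a star at an edgeR adjusted p below 0.05. Klf4 is negative in 8 columns and 1.26 in EpiSC against EPL, and Klf6 is positive in all but naive against ground in D3, where it is -0.08.

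Between the lines, 4 members differed in ground (20.1% of all genes), 5 in naive (29.9%) and 8 in EPL (29.4%). In EPL, Klf6 (1.385-fold, edgeR adjusted p = 0.00206) and Klf13 (1.285-fold, edgeR adjusted p = 0.000813) were higher in D3, and Klf2, Klf3, Klf4, Klf5, Klf9 and Klf10 were lower. Klf4 was 1.49-fold lower (edgeR adjusted p = 0.000244), Klf3 1.31-fold (edgeR adjusted p = 0.00132), Klf10 1.28-fold (edgeR adjusted p = 0.000564) and Klf9 1.25-fold (edgeR adjusted p = 0.019). The Klf9 call was lost without A2 EPL replicate 2 (-0.27, edgeR adjusted p = 0.0934) or D3 EPL replicate 3 (-0.25, edgeR adjusted p = 0.0953). In naive cells, Klf10 (-0.40 ± 0.07, edgeR adjusted p = 0.000184) and Klf9 (-0.33 ± 0.10, edgeR adjusted p = 0.0155) were lower in D3 and Klf13 higher (0.34 ± 0.08, edgeR adjusted p = 0.00168), beside Klf2 and Klf5. Without A2 naive replicate 1 or D3 naive replicate 2, 3 members were called there, with no count of all genes called. The Klf9 value was then -0.27 (edgeR adjusted p = 0.086) and -0.19 (edgeR adjusted p = 0.111), and without A2 naive replicate 3 it was -0.30 (edgeR adjusted p = 0.0597). In a fit of the naive groups alone it was -0.33 (edgeR adjusted p = 0.0966).

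In ground cells, Klf4 (-0.29 ± 0.10, edgeR adjusted p = 0.0389) and Klf10 (-0.26 ± 0.07, edgeR adjusted p = 0.0125) were also lower in D3. The ground calls moved with single libraries: 1 member, Klf5, was called without A2 ground replicate 3 or without D3 ground replicate 1, and 2 were called without D3 ground replicate 2 or 3. Here and below, the share of all genes called with a library left out was not counted. Klf4 did not pass without A2 ground replicate 1 (-0.24, edgeR adjusted p = 0.156) or 3 (-0.26, edgeR adjusted p = 0.124), or without D3 ground replicate 1 (-0.27, edgeR adjusted p = 0.123), 2 (-0.28, edgeR adjusted p = 0.108) or 3 (-0.31, edgeR adjusted p = 0.074), or with a replicate block (-0.29, edgeR adjusted p = 0.0517). Klf10 did not pass without A2 ground replicate 3 (-0.22, edgeR adjusted p = 0.0595), D3 ground replicate 1 (-0.22, edgeR adjusted p = 0.0684) or D3 ground replicate 2 (-0.24, edgeR adjusted p = 0.054). For the change between stages, the difference between lines was called for 0 members in naive against ground (3.06% of all genes), 1 in EPL against ground (13.3%) and 2 in EPL against naive (12.7%). Without A2 EPL replicate 1 these last counts were 2 and 4. For EPL against naive the count was 3 without D3 EPL replicate 2 and 1 without A2 EPL replicate 2, D3 EPL replicate 1, D3 naive replicate 1 or 3, or any A2 naive library. No member had an unadjusted p below 0.05 in the first of these, where DESeq2 also called 0.

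The lists below were counted with TMM scaling alone, and each count is to be read against the share of all genes called in the same comparison. From ground to EPL those shares were 27.2% higher and 27.6% lower in A2 and 29.4% and 28.4% in D3, and in EpiSC against EPL 39.1% and 31.3%. The median of all genes was -0.00227, 0 and 0.067 in these comparisons. Of the 9 other Klf genes, 8 were tested. Klf12, a repressor, was 4.62 ± 0.051 CPM (SD, n = 3) in A2 ground, 11.9 ± 3.9 in naive, 21.9 ± 2.0 in EPL and 7.04 ± 1.3 in EpiSC, and it rose from ground to EPL in A2 (2.245 ± 0.255, edgeR adjusted p = 1.15e-07) and D3 (1.70 ± 0.28, edgeR adjusted p = 2.2e-05). Klf7, an activator, rose as well (0.46 ± 0.19, edgeR adjusted p = 0.0409, and 1.41 ± 0.185, edgeR adjusted p = 8.13e-07). Klf8, a repressor, fell by 1.06 ± 0.08 (edgeR adjusted p = 3.63e-10) and 1.22 ± 0.08 (edgeR adjusted p = 2.5e-11), and Klf15 by 0.85 ± 0.125 (edgeR adjusted p = 4.54e-06) and 0.59 ± 0.12 (edgeR adjusted p = 0.000214). With 2 higher and 2 lower in each line, the median of the 8 was 0.08 in A2 and 0.13 in D3. In EpiSC against EPL, Klf12, Klf15, Klf16 and Klf8 were lower (-1.64, -1.68, -1.04 and -0.73) and Klf11 was higher (0.73 ± 0.10, edgeR adjusted p = 9.94e-07), with a median of -0.46 beside 0.07 for all genes. Klf11 was at 47.9 ± 5.3 CPM in EpiSC and 28.3 to 39.6 CPM as a mean elsewhere, Klf16 at 38.8 ± 1.7 CPM in EpiSC and 60.3 to 82.9 CPM elsewhere. Klf1 reached 1.18 ± 0.23 CPM in D3 naive. Klf14 and Klf17 stayed under 1 CPM in every group. The 3200 bases of Klf7 exons shared with genes on the opposite strand carry the same limit as Klf3.

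Of the 9 Sp genes, relatives that bind the same GC boxes, 8 were tested. From ground to EPL 1 rose and 4 fell in A2 (median -0.36), beside 27.2% and 27.6% of all genes, and 2 rose and 4 fell in D3 (median -0.08), beside 29.4% and 28.4%. Sp5, a target of Wnt signalling, was at 42.1, 24.1 and 31.3 CPM in A2 ground, 3.575, 3.283 and 4.094 CPM in naive and 1.535, 2.401 and 2.595 CPM in EPL. Its change from ground to EPL was -3.90 ± 0.21 in A2 (edgeR adjusted p = 6.77e-13) and -4.78 ± 0.25 in D3 (edgeR adjusted p = 3.12e-13). Sp8 was at 17.6, 13.9 and 26.2 CPM in EpiSC and under 2 CPM in every other library. Sp9 was at 2.38 ± 0.95 CPM in EpiSC. Sp1, Sp2, Sp3 and Sp4 had means of 162.3 to 265.3, 47.6 to 103, 101 to 126 and 7.209 to 11.99 CPM over the groups, and Sp6 and Sp7 stayed under 1 CPM.

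Genes of LIF and STAT3 signalling, a list that includes STAT3 targets, were mostly lower in EPL than in naive cells. In A2 10 of 13 fell and in D3 11 of 13, and 0 rose. Of all genes, 16.1% fell and 16.8% rose in that comparison in A2, and 20.4% and 24.4% in D3. The medians were -0.41 and -0.66, beside 0.00368 and 0.0161 for all genes. Against ground, 2 rose and 10 fell in A2 (median -0.46) and 1 rose and 10 fell in D3 (median -0.555). EPL medium had less LIF than ground medium and added proline, and against ground it also lacked 2i, and these differences cannot be told apart. Socs3, the feedback inhibitor of this pathway, was at 188, 181 and 175 CPM in A2 naive and 81.78, 87.1 and 97.95 CPM in EPL (-1.03 ± 0.12, edgeR adjusted p = 1.35e-06). In D3 it was at 157.5, 160.0 and 142.2 CPM and 66.3, 73.1 and 71.3 CPM (-1.125 ± 0.12, edgeR adjusted p = 1.78e-07). Tfcp2l1, a STAT3 target, fell by 1.31 ± 0.13 in A2 (edgeR adjusted p = 1.61e-07) and by 1.13 ± 0.13 in D3 (edgeR adjusted p = 5.42e-07), and Bcl3 fell by 0.68 ± 0.08 (edgeR adjusted p = 1.75e-06) and 1.61 ± 0.08 (edgeR adjusted p = 2.7e-12). The ligand gene Lif fell in A2 (-0.74 ± 0.19, edgeR adjusted p = 0.00536), and Gbx2, a STAT3 target, fell in D3 (-1.42 ± 0.14, edgeR adjusted p = 5.6e-08). In EpiSC against EPL, 4 rose and 7 fell (median -0.27).

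Of 7 genes of the MEK5, ERK5 and MEF2 pathway, EPL against ground had 1 higher and 4 lower in A2 (median -0.37), beside 27.2% and 27.6% of all genes, and 1 higher and 3 lower in D3 (median -0.125), beside 29.4% and 28.4%. Mapk7, which encodes ERK5, fell by 0.56 ± 0.07 (edgeR adjusted p = 6.2e-07) and 0.58 ± 0.07 (edgeR adjusted p = 3.34e-07) in the 2 lines. In EpiSC against EPL, where 39.1% of all genes rose and 31.3% fell, 5 rose and 1 fell (median 0.69). The gene that fell was Mapk7 itself (-0.16 ± 0.07, edgeR adjusted p = 0.0472). Among those that rose were the factor Mef2a (1.501 ± 0.14, edgeR adjusted p = 3.33e-09) and the kinase Map2k5 (0.9991 ± 0.10, edgeR adjusted p = 1.81e-08). Mef2c, also higher, was at a mean of 1.85 CPM in EpiSC and 0.174 CPM in A2 EPL. It was also the gene counted as higher in EPL against ground in each line, at a mean of 0.485 CPM in D3 EPL.

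In the list of TGF-beta signalling and early response, 2 of 10 rose and 6 fell from ground to EPL in A2 (median -0.65), beside 27.2% and 27.6% of all genes. In D3, 3 rose and 5 fell (median -0.56), beside 29.4% and 28.4%. Skil, a feedback inhibitor, rose by 2.73 ± 0.11 (edgeR adjusted p = 2.41e-15) and 3.11 ± 0.11 (edgeR adjusted p = 2.75e-16), while the receptor gene Tgfbr2 fell by 3.36 ± 0.23 (edgeR adjusted p = 3.54e-11) and 1.34 ± 0.26 (edgeR adjusted p = 0.000122). In EpiSC against EPL, 7 rose and 1 fell (median 0.68), beside 39.1% and 31.3% of all genes, with rises in the receptor gene Tgfbr2 (4.93 ± 0.22, edgeR adjusted p = 1.83e-14) and Smad3, a signal transducer (1.795 ± 0.12, edgeR adjusted p = 1.88e-11). These EpiSC rises stand beside the rise of all 10 fibroblast markers, whose median log2 change against EPL was 9.55, and of all 6 primitive endoderm markers (median 2.80). Their part was not tested.

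Of 9 corepressor genes used by the repressing members, 2 rose and 6 fell in EpiSC against EPL (median -0.36), beside 39.1% and 31.3% of all genes and an all-gene median of 0.067. Ctbp2, a partner of Klf3, was at 416, 404 and 383 CPM in A2 EPL and 146, 149 and 136 CPM in EpiSC (-1.48 ± 0.07, edgeR adjusted p = 7.23e-14), and Sin3a, a partner of Klf9 and Klf13, fell by 0.88 ± 0.08 (edgeR adjusted p = 3.18e-09). Their relatives went the other way: the 2 genes that rose were Ctbp1 (0.20 ± 0.07, edgeR adjusted p = 0.0183) and Sin3b (0.26 ± 0.08, edgeR adjusted p = 0.00413). From ground to EPL, Ctbp2 rose by 0.67 ± 0.07 in A2 (edgeR adjusted p = 3.54e-08) and 0.74 ± 0.07 in D3 (edgeR adjusted p = 6.53e-09), in lists with 3 higher and 3 lower (median 0.06) and 2 higher and 3 lower (median -0.11). Of 7 ubiquitin ligase genes described for KLF proteins, 1 rose and 2 fell in A2 EPL against ground (median -0.06) and 1 rose and 3 fell in D3 (median 0.06), and 4 rose and 1 fell in EpiSC against EPL (median 0.23). Fbxo22 was the one that fell there (-1.005 ± 0.07, edgeR adjusted p = 8.4e-12), and Fbxo32 rose by 1.785 ± 0.21 (edgeR adjusted p = 9.67e-08). Of 6 glucocorticoid response genes, 3 rose and 2 fell from ground to EPL in each line (medians 0.17 and 0.12), beside 27.2% and 27.6% of all genes in A2 and 29.4% and 28.4% in D3, and 3 rose and 3 fell in EpiSC against EPL (median 0.03). Tsc22d3 rose by 1.89 ± 0.32 (edgeR adjusted p = 3.38e-05) and 1.90 ± 0.28 (edgeR adjusted p = 4.54e-06) from ground to EPL in A2 and D3. Its level was low, with means of 0.74 and 2.73 CPM in A2 ground and EPL and 1.13 and 4.19 CPM in D3. The kinase gene Sgk1 fell by 0.70 ± 0.09 (edgeR adjusted p = 5.03e-07) and 1.23 ± 0.09 (edgeR adjusted p = 5.75e-11), and Zbtb16, a zinc-finger factor at 1.98 and 2.31 CPM in ground, by 2.48 ± 0.46 (edgeR adjusted p = 8.87e-05) and 2.55 ± 0.43 (edgeR adjusted p = 2.64e-05).

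Among 12 pluripotency genes described as targets of these factors, 2 rose and 6 fell from ground to EPL in A2 (median -0.26), beside 27.2% and 27.6% of all genes, and 2 rose and 8 fell in D3 (median -0.72), beside 29.4% and 28.4%. Tbx3 fell by 3.75 ± 0.09 (edgeR adjusted p = 4.93e-19) and 3.94 ± 0.09 (edgeR adjusted p = 2.45e-19), and Nanog by 1.52 ± 0.09 (edgeR adjusted p = 1.13e-12) and 2.21 ± 0.09 (edgeR adjusted p = 1.99e-15). Lefty1, a Nodal antagonist, rose by 2.94 ± 0.32 (edgeR adjusted p = 5.63e-08) and 3.16 ± 0.31 (edgeR adjusted p = 9.09e-09). In EpiSC against EPL, 2 rose and 9 fell (median -0.98): Tbx3 (2.00 ± 0.08, edgeR adjusted p = 4.89e-15) and Lefty1 (2.83 ± 0.29, edgeR adjusted p = 1.49e-08) were higher, as Klf4 was, and Mycn (-1.99 ± 0.07, edgeR adjusted p = 2.97e-16) and Tcl1 (-1.59 ± 0.16, edgeR adjusted p = 7.47e-09) were lower. Against ground, EpiSC had 1 target higher and 11 lower (median -1.32), beside 39.1% and 34.1% of all genes and an all-gene median of 0.0416. Of the 10 pluripotent cell markers, 2 rose and 7 fell in EpiSC against EPL (median -1.06), beside 39.1% and 31.3% of all genes. This list shares genes with the targets, Nanog among them, so the counts of these lists are not separate. The endothelial list had 2 higher and 1 lower of 4 tested (median 0.88).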

How the data were processed

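Total RNA of 21 mouse libraries was extracted with a column kit and DNase and sequenced after a TruSeq kit that does not mark strand, per the labels' protocols. The authors deposited raw read counts per gene. The tools named are HISAT2, SAMtools and featureCounts and the build is GRCm38, per the submitters' processing notes. Their versions and settings, and the annotation counted, are not given in these sources. All 39396 gene identifiers matched GENCODE M21, which gave coordinates and exon lengths for RPKM. Total counts were 15320599 to 23490527 per library.

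The 8 members and 13 gene lists were chosen with earlier results of these data known. Genes kept by filterByExpr (minimum count 10, minimum total 15) were fitted in 1 quasi-likelihood model with 7 group means and no replicate block (edgeR 4.0.16, R 4.3.3), scaled by TMM, with factors of 1.136 to 1.145 in EpiSC and 0.9326 to 1.007 elsewhere. Tests were two-sided over 15 comparisons, adjusted over the 16575 genes of each, and called at 0.05. SEs come from the fold change and its F statistic. The procedure was tested on simulated data. All 8 members are named throughout, and other genes are drawn from up to 4 called genes per list and comparison, not all of which are reported here (those of largest change whose higher group averaged 1 CPM or more), from Klf and Sp genes of at least 1 CPM in a group, and from the 3 genes most like each member (Pearson's r of log2 CPM group means, prior count 2, at least 5 CPM in a group). Shared replicate numbers were not taken as pairs. Alternatives were other scalings and filters, DESeq2 1.42.0, a replicate block, fits of the compared groups alone and leaving out each library.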

Additional observations from a re-analysis of the deposited data

Results flagged for a closer look

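The change in Klf2 differed between the cell lines: the test of the line-by-stage term gave -0.846 for EPL against ground (edgeR adjusted p = 0.00246) and -0.887 for EPL against naive (edgeR adjusted p = 0.00206), D3 minus A2 on the log2 scale. In every D3 EPL library Klf2 was below every D3 ground and naive library, while the A2 stages overlapped.

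The same test gave -0.366 for Klf3 in EPL against naive (edgeR adjusted p = 0.047). It did not pass with a replicate block (-0.37, edgeR adjusted p = 0.0585), under library total scaling (-0.32, edgeR adjusted p = 0.0883), or in 9 of 12 fits that each left out 1 library of those groups. All D3 EPL libraries were below all D3 naive libraries, and all A2 EPL libraries were above all A2 naive libraries.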

How the results depend on the processing

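Of 840 values under other settings, 805 kept direction and side of the threshold, 11 no longer passed, 17 newly passed and 7 changed sign, all 7 in values that did not pass. Library total scaling gave 0.0137 for Klf3 in A2 naive against ground, and 0.12 (Klf10) and 0.14 (Klf13) in EpiSC against EPL. Klf9 in the line term of EPL against naive was -0.01076 with RLE size factors, -0.01367 with no filter, -0.01058 with DESeq2 and -0.005897 with only the groups compared. Members called in that term numbered 1 under library total, 4 with no filter and 1 to 4 when each library was left out. In the term for EPL against ground they numbered 2 with no filter, 2 with DESeq2, 3 with only the groups compared and 1 to 2 over leave-outs. D3 against A2 in ground had 7 with only the groups compared and 1 to 3 over leave-outs, and D3 against A2 in naive had 3 to 5. All called genes were counted for the main fit and the other scalings only. Numbers from the other fits thus have no share of all genes beside them. The cause was not tested.

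Of 864 leave-out values, 787 kept direction and call, 41 no longer passed, 8 newly passed and 28 changed sign. Sign changes were in values that did not pass: Klf2 (-0.2136 to 0.02953) and Klf5 (-0.03066 to 0.1752) in D3 naive against ground, Klf3 in A2 EPL against ground (-0.01081 to 0.08347), Klf2 in A2 EPL against naive (-0.1427 to 0.02712), Klf10 in EpiSC against EPL (-0.1446 to 0.005622), Klf2 (-0.1017 to 0.1529), Klf5 (-0.1348 to 0.0928) and Klf9 (-0.2103 to 0.01619) in the line term of naive against ground, and Klf9 (-0.1339 to 0.07559), Klf10 (-0.02963 to 0.117) and Klf13 (-0.06544 to 0.06858) in that of EPL against naive.

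The labels number the libraries 1 to 3 in each group. Deviations of same-numbered libraries correlated between -0.20 and 0.36 (median -0.02, 8 of 63 pairs over 0.1), and 5 of 21 libraries correlated best with their own number, so the number was not used as pairing, although the design text calls the samples paired without saying how. With a replicate block, 1 member was called in the line term of EPL against naive, where Klf3 was -0.37 (edgeR adjusted p = 0.0585), and Klf4 in D3 against A2 ground was -0.29 (edgeR adjusted p = 0.0517). It changed no other call. The lowest count of a member in a library was 561.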
